A study of Mus musculus with 9 samples.

Results

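This set holds 37 genes of growth cones, neuronal adhesion and neuronal identity, taken from a fixed list of gene symbols. The list was chosen with earlier results of these data known. Each gene was read from 1 probe set (the highest mean over the 9 arrays). All 37 were measured, among 22180 genes in all. Total RNA came from N1E-115, a mouse neuroblastoma line of sympathetic origin whose cells put out neurites when serum is withdrawn and laminin is offered. The series asks how Hmgn5, a nucleosome-binding protein that alters chromatin compaction, bears on that outgrowth. There were 3 groups of 3 arrays: hmgn5 siRNA after 24 h of differentiation, and control siRNA after either 4 h or 24 h. Every group was transfected with 80 nM siRNA, a control or a smartpool against Hmgn5, so the controls were transfected cells as well. All were starved overnight without serum and then replated on laminin. The 9 arrays include no Hmgn5 siRNA at 4 h, so the siRNA comparison stands at 24 h and the time comparison in control cells. A single clonal tumour line was used, and its RNA was taken from whole cells, not from neurites or growth cones.

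A neurite advances through its growth cone, where membrane-bound growth-associated proteins gather signalling lipids and calmodulin at the leading edge and actin regulators drive protrusion. Collapsin response mediator proteins carry guidance signals to tubulin, and adhesion molecules of the immunoglobulin superfamily hold growing processes to each other and to their surroundings. Neurofilaments and peripherin fill the shaft, while Elavl proteins bind AU-rich mRNAs in neurons and stabilise them, that of Gap43 among them. Klf6, Klf7, Sox11 and Sprr1a are known from injured neurons, which switch them on as axons regrow.

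Values are log2 expression, so a difference of 1 is a doubling of the signal, and levels of different genes are not compared, other than in a rough check of cell type. A gene is said to have risen or fallen where limma's adjusted p, over all 22180 genes, was under 0.05. Hmgn5 itself read 4.77, 4.66 and 4.69 with control siRNA at 24 h and 3.53, 3.45 and 3.5 with Hmgn5 siRNA, and fell by 1.21 (SE 0.09, limma adjusted p = 0.00367). Hmgn5 was among the dimmest 33% of genes, so the share of it that remained is not given. This fall did not pass when control 24 h replicate 1 (adjusted p = 0.0558) or Hmgn5 siRNA replicate 2 (0.0552) or 3 (0.0506) was left out. An exact two-sided permutation test gave p = 0.1, the smallest possible with 3 arrays against 3. Of 12 sympathetic neuroblast markers 9 were measured, and none was among the dimmest 33% of genes. Of the other cell types, 4 of 7 glial, 2 of 7 fibroblast, 4 of 7 leukocyte and 2 of 6 endothelial markers were. This is a rough check, since probe sets differ in response. The neuroblast markers moved over time alongside the set. Th, Dbh and Slc18a1, of catecholamine synthesis and storage, rose (0.53, 0.80 and 0.80, adjusted p = 0.0188, 0.00534 and 0.00398). They are 33.3% of the 9, where 4.34% of all genes, and 6.34% of those above the dimmest 33%, were called. The 24 h and 4 h control arrays were apart for 8 of the 9 (88.9%), with 7 higher at 24 h and Hand2 lower. Of all genes 21.3% were apart, and 28.1% of those above the dimmest 33%. The mean of the 9 stood 0.27, 0.51 and 0.28 below the 24 h controls on the 4 h arrays. Chga read 10.72 on the second of these arrays, against 11.97 and 11.91 on the others. Th did not pass with any control array at 24 h left out (adjusted p up to 0.0774). The part of these markers in the set's differences over time was not tested. Of the other lists Slc1a3, a dim glial marker, rose over time (0.33, adjusted p = 0.048), but passed in only 1 of 9 fits with an array left out. No marker of any list was called at knockdown. Dbh differed by -0.42 there (limma unadjusted p = 0.00306, adjusted p = 0.595). It read 11.63, 11.53 and 11.68 with control siRNA at 24 h and 11.27, 11.19 and 11.11 with Hmgn5 siRNA. Of the 9 neuroblast markers, 5 differences at knockdown were above 0 and 4 below. The arrays were apart for 2 of these markers (22.2%), both lower with Hmgn5 siRNA. Of all genes 12.3% were apart at knockdown, and 14.7% of those above the dimmest 33%. limma's array weights were 0.198 for control 4 h replicate 2 and 0.789 to 1.74 for the other arrays. In 32.4% of the 37 genes replicate 2 lay over 0.3 from the mean of the other 4 h arrays, against 21% of all genes. Results over time are therefore also given without it. Each gene's spread was estimated from all 9 arrays, so this array also enters the standard errors and p-values at knockdown. Without it limma's adjusted p at knockdown was 0.192 for Klf6, 0.386 for Elavl2 and 0.483 for Dpysl5. With all arrays these were 0.458, 0.798 and 0.846, and none of the 37 was called there in either fit.

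Over time, Klf6 and Cntn2 rose and none of the 37 fell, a share of 5.41% where 4.34% of all genes were called and 2.17% rose. Of the 37, 33 lay above the dimmest 33% of genes, and 6.06% of these were called, against 6.34% of all genes above that line. An unadjusted p under 0.05 was found for 11 of the 37, a larger share than the 18% of all genes. All 11 lay above the dim line, where 3607 of 14861 genes had one. Of the 37 differences, 26 were above 0 and the median was 0.10, against 54.9% above 0 and a median of 0.02 over all genes. The 24 h and 4 h control arrays did not overlap for 15 of the 37, with 13 higher and 2 lower at 24 h, a share of 40.5% where the background was 21.3% (11.3% higher and 9.98% lower). Arrays separated more often for brighter genes. Above the dim line the arrays were apart for 45.5% of the 33 and for 28.1% of all genes. At knockdown none of the 37 was called by limma, with 0.0135% of all genes called. There 5 of the 37 had an unadjusted p under 0.05, a larger share than the 5.25% of all genes. Without the empirical Bayes step none was called either. The median at knockdown was -0.03, against 0.00 over all genes, and 23 of 37 differences were below 0. Of all 22180 genes 11263 were below 0, and 7063 of the 14861 above the dim line. The arrays of the 24 h groups did not overlap for 11 of the 37 (29.7%), 4 higher and 7 lower. Of all genes 12.3% were apart (6.65% higher and 5.62% lower), and 14.7% of those above the dim line.

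**Figure D1:**
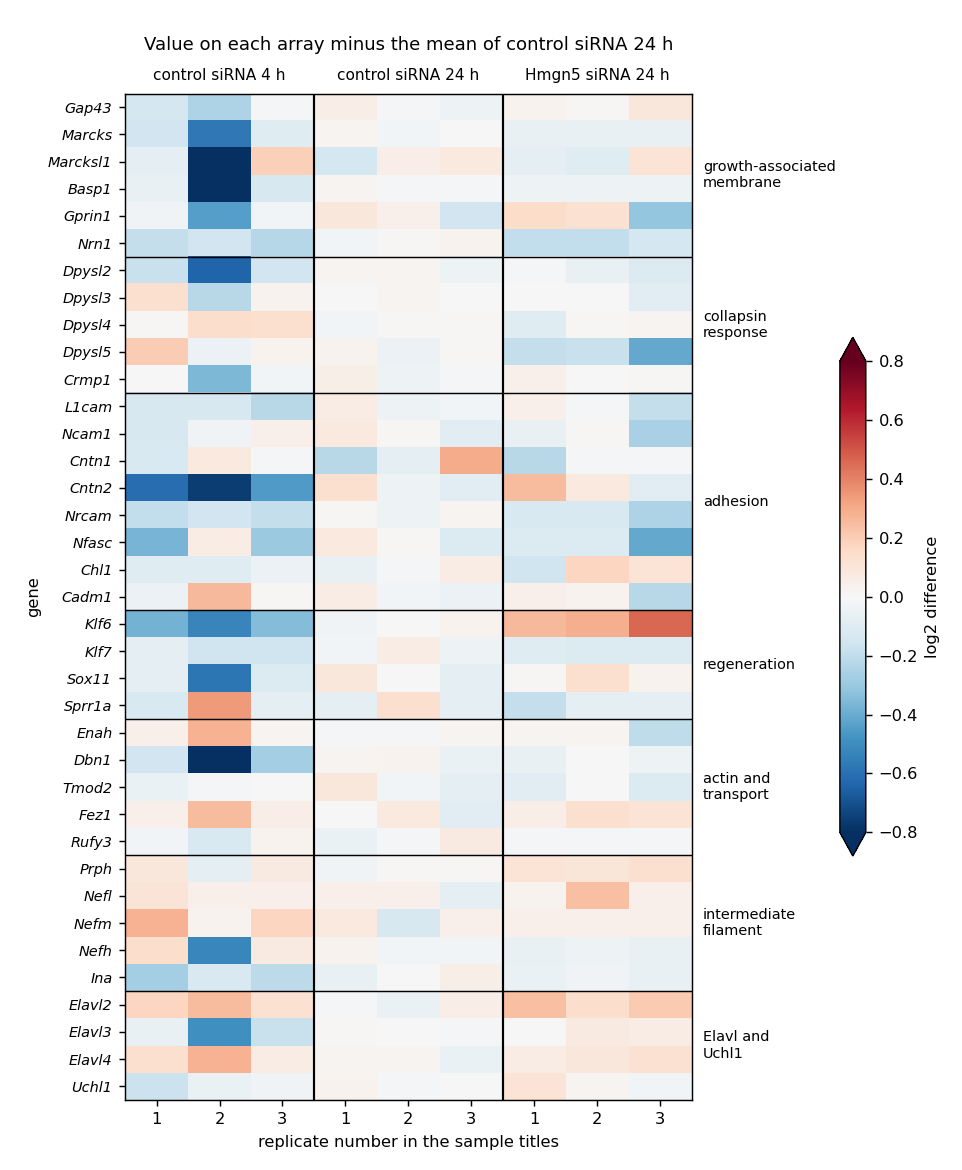
Log2 value of each of the 37 genes (rows, grouped by role) on each of the 9 arrays (columns) minus the mean of that gene's 3 control siRNA arrays at 24 h. Blue is lower and red higher, and the colour scale ends at 0.8 on either side. Klf6 runs from blue at 4 h through white to red with Hmgn5 siRNA, Cntn2 is blue on all 3 arrays at 4 h, and the second 4 h column holds the darkest blue cells, such as Marcksl1, Basp1 and Dbn1.

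Klf6, a zinc-finger transcription factor that promotes axon growth, had 3 separate levels, lowest in control cells at 4 h and highest with Hmgn5 siRNA. It read 9.44, 9.29 and 9.47 at 4 h, 9.79, 9.82 and 9.85 with control siRNA at 24 h, and 10.08, 10.11 and 10.28 with Hmgn5 siRNA. No array of one group reached into the range of another. The groups were also apart for Marcks and Basp1, there with Hmgn5 siRNA between the control groups. How many of all genes had all 3 groups apart was not counted. In the single comparisons 21.3% of all genes were apart over time and 12.3% at knockdown. Over time Klf6 rose 1.34-fold (log2 difference 0.42, SE 0.07, adjusted p = 0.0159). At knockdown it stood a further 0.34 higher (95% interval 0.17 to 0.51), which did not pass over all genes (adjusted p = 0.458, unadjusted p = 0.00122). Between control cells at 4 h and Hmgn5 siRNA at 24 h, where siRNA and time differ together, the rise was 1.69-fold (0.76, SE 0.07, adjusted p = 0.00219), and 2.57% of all genes were called there. With 1 of the 3 control arrays at 24 h left out, whichever it was, the rise over time did not pass (adjusted p 0.0555 to 0.063). These arrays serve both differences, with opposite sign.

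The other regeneration genes gave no call. Klf7, a relative of Klf6 that also promotes axon growth, read 9.46, 9.37 and 9.37 at 4 h, 9.51, 9.59 and 9.49 at 24 h and 9.43, 9.42 and 9.42 with Hmgn5 siRNA. The 24 h controls were thus slightly above both other groups, by 0.13 over 4 h (adjusted p = 0.282) and 0.10 over Hmgn5 siRNA (adjusted p = 0.979). A second, dimmer probe set of Klf7 gave -0.05 over time. Sox11, a transcription factor of immature and regrowing neurons, read 8.4, 7.89 and 8.36 at 4 h and 8.56, 8.47 and 8.39 at 24 h. Its difference of 0.26 (adjusted p = 0.318) was 0.09 without control 4 h replicate 2. Sprr1a, a small proline-rich protein induced by axotomy, stayed between 5.08 and 5.61 on the 9 arrays, and its highest value was on that 4 h array.

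Cntn2, a GPI-anchored adhesion molecule of outgrowing axons, had the largest difference of the set over time. It read 6.11, 5.96 and 6.27 at 4 h, 6.85, 6.68 and 6.63 at 24 h, and 6.97, 6.8 and 6.63 with Hmgn5 siRNA. Both 24 h groups lay above every 4 h array and overlapped each other. Cntn2 rose 1.52-fold over time (0.60, SE 0.11, adjusted p = 0.0165), and its difference at knockdown was 0.08 (95% interval -0.16 to 0.32). The rise passed without control 4 h replicate 2 (0.53, adjusted p = 0.0328), but not without control 24 h replicate 1 (adjusted p = 0.072) or 2 (0.0577), and not without the empirical Bayes step (0.0725).

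The 250 bases before the RefSeq start of the 2 genes that rose over time are shown to let their promoters be compared (GRCm38.p6, gene strand, 5′ to 3′). Klf6 lies at chr13:5861239-5861488 on the plus strand and Cntn2 at chr1:132542941-132543190 on the minus strand. Capitals mark every match, on either strand, to GGGCGG (the GC box of Sp factors), CACCC (a core bound by Klf factors) and CACGTG (an E-box).
Klf6: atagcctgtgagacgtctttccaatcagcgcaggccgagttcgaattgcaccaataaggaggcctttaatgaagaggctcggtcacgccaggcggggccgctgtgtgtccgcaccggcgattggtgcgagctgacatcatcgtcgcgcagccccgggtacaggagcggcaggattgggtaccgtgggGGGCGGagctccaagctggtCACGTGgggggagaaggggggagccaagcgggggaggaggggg
Cntn2: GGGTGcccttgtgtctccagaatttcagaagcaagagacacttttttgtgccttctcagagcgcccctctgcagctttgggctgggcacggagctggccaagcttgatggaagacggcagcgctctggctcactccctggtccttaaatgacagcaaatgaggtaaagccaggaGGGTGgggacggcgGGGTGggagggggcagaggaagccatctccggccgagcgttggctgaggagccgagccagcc
The marked motifs were not shared. Klf6 had 1 GC box and 1 E-box and no CACCC, and Cntn2 had 3 CACCC matches and neither of the others. Their G+C content was 64.8% and 61.2%, where the median over all 32851 such windows of the table was 52.4%. The RefSeq table held 26 of the 37 genes, with 43 windows whose median G+C content was 58%. A GC box was in 55.8% of these against 32.7% of all windows, CACCC in 65.1% against 52%, the E-box in 4.65% against 6.02%, and TATAAA, the TATA box, in 14% against 12.4%. TGACGTCA, the full cAMP response element, was in none of the 43 and in 1.55% of all windows. GGGCGG and CACCC are themselves rich in G and C, and shares at equal G+C content were not tested. Windows of one gene can overlap, and a match is a run of letters, not a measured binding site.

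Among the other 7 adhesion genes, Nrcam and L1cam were higher on every 24 h control array than on any 4 h array, and neither passed. Nrcam, an L1-family molecule of growth cones and axon initial segments, read 9.89, 9.94 and 9.9 at 4 h, 10.1, 10.05 and 10.11 at 24 h, and 9.97, 9.97 and 9.84 with Hmgn5 siRNA. The 24 h controls were above both other groups without overlap. The differences were 0.18 over time (adjusted p = 0.142) and -0.16 at knockdown (adjusted p = 0.926, 95% interval -0.29 to -0.03), and Hmgn5 siRNA at 24 h stood 0.02 from control at 4 h. Both differences use the 24 h control arrays, with opposite sign, so they are not independent. L1cam, the founding member of that family, had means of 10.46, 10.62 and 10.57 in the order 4 h, 24 h and Hmgn5 siRNA (difference over time 0.16, adjusted p = 0.292). Nfasc, the ankyrin-binding neurofascin, had means of 9.83, 10.03 and 9.82. Its 4 h arrays read 9.66, 10.09 and 9.73, and without the second of these its difference of 0.20 was 0.33 (adjusted p = 0.112). Ncam1, the neural cell adhesion molecule, and Cadm1, a synaptic adhesion molecule, differed over time by 0.04 and -0.08. Cntn1 and Chl1 were among the dimmest 33% of genes, with group means of 4.47 to 4.55 and 3.48 to 3.61, so little can be read from them.

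The 6 growth-associated membrane genes all had higher means at 24 h than at 4 h, by 0.13 to 0.39 with a median of 0.23, and none passed. Much of this lay with 1 array. Averaged over the 6 genes, control 4 h replicate 2 stood 0.55 below the 24 h controls and the other 4 h arrays 0.11 and 0.05 below. Basp1, a calmodulin-binding growth cone protein, read 10.87, 9.96 and 10.8 at 4 h and 10.95, 10.92 and 10.92 at 24 h. Its difference of 0.39 (adjusted p = 0.336) was 0.10 without that array. With Hmgn5 siRNA it read 10.89 on each array, just below the 24 h controls (-0.04, adjusted p = 0.999). Marcks, a protein kinase C substrate that cross-links actin at the membrane, read 8.59, 8.17 and 8.64 at 4 h and 8.76, 8.72 and 8.74 at 24 h, a difference of 0.28 (adjusted p = 0.22) that was 0.13 without it. It too lay just below the 24 h controls with Hmgn5 siRNA, at 8.68 on each array (-0.06, adjusted p = 0.999). For its relative Marcksl1 the value went from 0.26 to -0.06. Gap43 is the protein kinase C substrate by which growth cones are often identified. Its means were 10.96, 11.09 and 11.13 at 4 h, 24 h and with Hmgn5 siRNA, and neither difference passed (adjusted p = 0.369 and 0.999). The first of these, 0.13, was 0.07 without that array. Gprin1, a G-protein-regulated inducer of neurite outgrowth, had means of 7.97, 8.13 and 8.12, and its difference of 0.16 over time was 0.02 without it.

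Nrn1 (neuritin), an activity-induced protein on a GPI anchor that favours neurite growth, did not follow that array. It read 10, 10.04 and 9.96 at 4 h, 10.17, 10.2 and 10.22 at 24 h, and 9.99, 9.99 and 10.05 with Hmgn5 siRNA. The control arrays at 24 h were above all 6 others, which overlapped each other. The difference over time was 0.20 (SE 0.05, adjusted p = 0.0834), and it passed without control 4 h replicate 2 (0.22, adjusted p = 0.0498), with array weights (0.0287), with a trend and robust prior (0.0452) and without the empirical Bayes step (0.0316). At knockdown the difference was -0.18 (95% interval -0.31 to -0.06, adjusted p = 0.79), against the same 24 h controls.

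**Figure D2:**
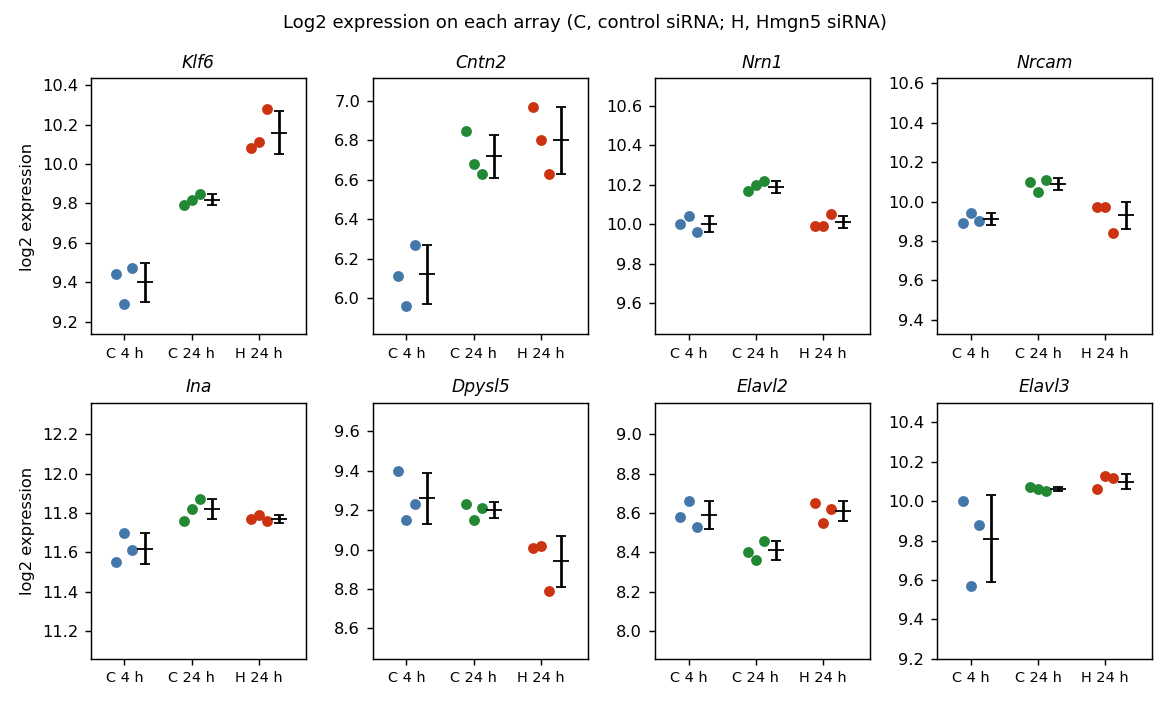
Log2 expression of 8 genes on each array, with 3 points for each of control siRNA at 4 h (C 4 h), control siRNA at 24 h (C 24 h) and Hmgn5 siRNA at 24 h (H 24 h), and beside them the mean and SD. Every panel spans 1.3 log2 units. The groups of Klf6 step up without overlap, the 24 h controls of Nrn1 and Nrcam stand above and those of Elavl2 below both other groups, and Dpysl5 is lowest with Hmgn5 siRNA.

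Of the 5 collapsin response mediator genes none passed in either comparison. Dpysl5, the member that restrains neurite growth by binding tubulin, read 9.4, 9.15 and 9.23 at 4 h, 9.23, 9.15 and 9.21 at 24 h, and 9.01, 9.02 and 8.79 with Hmgn5 siRNA. The Hmgn5 siRNA arrays were below all 6 control arrays. The difference was -0.26 at 24 h (SE 0.09, 95% interval -0.45 to -0.06, adjusted p = 0.846) and -0.32 against 4 h (adjusted p = 0.0974). Dpysl2, which binds tubulin dimers and promotes axon formation, read 11.62, 11.16 and 11.65 at 4 h, 11.82, 11.82 and 11.76 at 24 h, and 11.79, 11.74 and 11.69 with Hmgn5 siRNA. Both 24 h groups were above the 4 h arrays and overlapped each other. Its difference of 0.32 over time (adjusted p = 0.173) was 0.16 without control 4 h replicate 2. Crmp1 had means of 11.5, 11.63 and 11.65, and its difference of 0.12 was 0.01 without that array. Dpysl4, the member with the next smallest p over time (-0.10, adjusted p = 0.476), read 5.43, 5.56 and 5.55 at 4 h, 5.4, 5.43 and 5.43 at 24 h, and 5.32, 5.43 and 5.44 with Hmgn5 siRNA, so all 3 groups overlapped. Dpysl3 had 2 probe sets that differed over time: 0.02 for the brighter one and 0.38 for the other, which read 9.47, 8.14 and 9.38 on the 4 h arrays.

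Among the actin and transport genes, Dbn1 had the largest difference over time and also the widest interval. Dbn1, the actin-binding drebrin that links actin to microtubules in growth cones, read 11.01, 10.02 and 10.89 at 4 h, 11.18, 11.19 and 11.11 at 24 h, and 11.1, 11.16 and 11.12 with Hmgn5 siRNA. All 24 h arrays of both siRNAs were above the 4 h arrays. Its difference of 0.52 (SE 0.21, 95% interval 0.05 to 0.99, adjusted p = 0.222) was 0.21 (adjusted p = 0.0811) without control 4 h replicate 2, and at knockdown it was -0.03. Enah, an actin anti-capping protein of filopodia, was highest on that array (10.76 against 10.52 and 10.5), and its difference over time was -0.12, or -0.03 without it. Tmod2, a tropomodulin that caps actin filaments in neurons, and Rufy3, a protein of neuronal polarity, differed over time by 0.02 and 0.04. Fez1, a kinesin adaptor, read 5.31, 5.52 and 5.32 at 4 h, 5.27, 5.35 and 5.18 at 24 h, and 5.32, 5.4 and 5.38 with Hmgn5 siRNA. Its groups overlapped, with a difference over time of -0.12 (adjusted p = 0.459) that was -0.05 without control 4 h replicate 2. At knockdown Fez1 had the smallest p of the actin and transport genes (0.10, adjusted p = 0.986). Rufy3 had 1 value, 8.79, on all 3 Hmgn5 siRNA arrays. Such ties, equal to within 1e-06, also held for Nefm and for 1.95% of all genes in that group.

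The neuronal intermediate filament genes did not move together. Ina, alpha-internexin, read 11.55, 11.7 and 11.61 at 4 h, 11.76, 11.82 and 11.87 at 24 h, and 11.77, 11.79 and 11.76 with Hmgn5 siRNA. Both 24 h groups were above the 4 h arrays. The difference over time was 0.20 (SE 0.06, adjusted p = 0.117), and it passed without control 4 h replicate 2 (0.24, adjusted p = 0.0429) and with array weights (0.22, adjusted p = 0.0345). Prph, peripherin of peripheral neurons, read 12.05, 11.88 and 12.03 at 4 h, 11.93, 11.97 and 11.97 with control siRNA at 24 h and 12.07, 12.06 and 12.09 with Hmgn5 siRNA, a difference of 0.12 (95% interval -0.02 to 0.26, adjusted p = 0.979). Over time its difference was -0.03, or -0.08 (adjusted p = 0.418) without the second 4 h array. Of the neurofilament triplet, Nefh, the heavy chain, read 9.98, 9.32 and 9.91 at 4 h and 9.82 to 9.87 at 24 h. Its difference went from 0.10 to -0.11 when the second 4 h array was left out. With Hmgn5 siRNA it read 9.78, 9.8 and 9.78, a difference of -0.05 from the 24 h controls. The light and medium chains, Nefl and Nefm, were among the dimmest 33% of genes, with group means of 3.78 to 3.88 and 3.84 to 4. Nefm read 4.12, 3.87 and 4.01 at 4 h, 3.92, 3.71 and 3.88 at 24 h, and 3.88 on each Hmgn5 siRNA array. Its groups overlapped, and it had the next smallest p of the filament genes over time after Ina (-0.16, adjusted p = 0.327).

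The Elavl genes differed in direction over time. Elavl3 read 10, 9.57 and 9.88 at 4 h, 10.07, 10.06 and 10.05 at 24 h, and 10.06, 10.13 and 10.12 with Hmgn5 siRNA. Both 24 h groups were above the 4 h arrays, with a difference over time of 0.24 (adjusted p = 0.226) that was 0.12 without control 4 h replicate 2. Elavl2 read 8.58, 8.66 and 8.53 at 4 h, 8.4, 8.36 and 8.46 at 24 h, and 8.65, 8.55 and 8.62 with Hmgn5 siRNA. Its 24 h controls were below all 6 other arrays. The differences were -0.18 over time (adjusted p = 0.15) and 0.20 at knockdown (95% interval 0.06 to 0.34, adjusted p = 0.798), and 0.02 between Hmgn5 siRNA at 24 h and control at 4 h. Elavl4 was also lowest in the 24 h controls, with means of 8.71, 8.55 and 8.64, but highest at 4 h. Its differences were -0.16 over time (adjusted p = 0.247), which was -0.10 without control 4 h replicate 2, and 0.10 at knockdown (adjusted p = 0.984). Because both differences of each gene draw on the same 24 h controls, an unusual value there would move them in opposite directions. Uchl1, a ubiquitin hydrolase abundant in neurons, had means of 11.76, 11.84 and 11.88, and neither difference passed. Its second, dim probe set gave -0.03 over time.

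**Figure D3:**
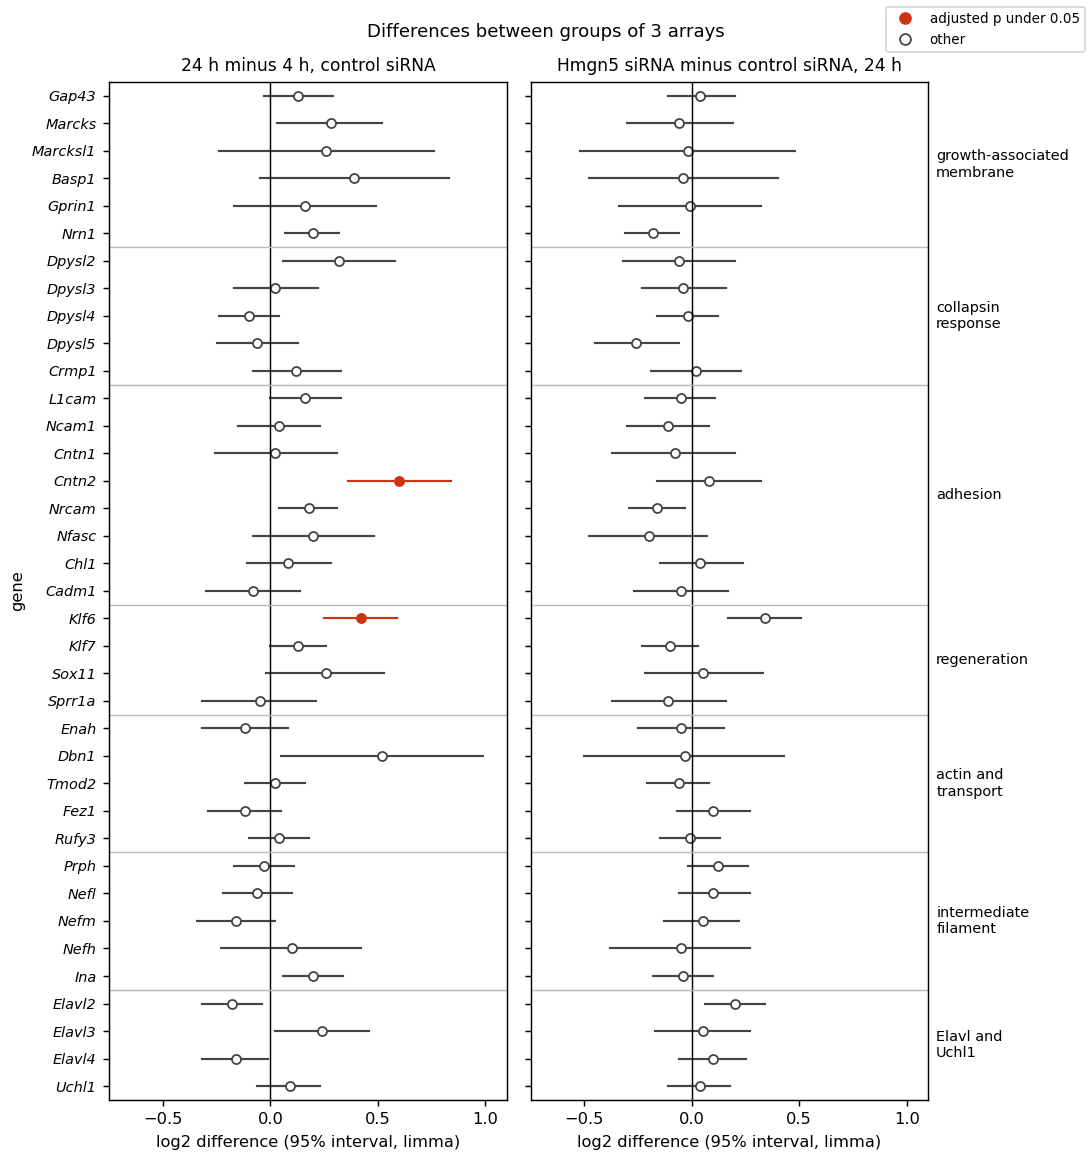
Log2 difference of each of the 37 genes with its 95% interval from limma, 24 h minus 4 h in control siRNA on the left and Hmgn5 siRNA minus control siRNA at 24 h on the right, 3 arrays a group. Filled red points had an adjusted p under 0.05: Cntn2 (0.60) and Klf6 (0.42) over time, and none at knockdown, where the values run from -0.26 (Dpysl5) to 0.34 (Klf6).

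The knockdown intervals rest on sample-to-sample spread, which may be technical, and so describe only the precision of these arrays. Their widths draw on all 9 arrays, control 4 h replicate 2 among them. Cntn1, Chl1, Nefl and Nefm were among the dim genes, so little can be read from their intervals. For all 37 genes the 95% interval at knockdown, not adjusted for the number of genes, lay within 1.5-fold of no difference (0.585 on the log2 scale), and for 32 of them it spanned 0. The 5 that did not were Klf6, Elavl2, Nrn1, Nrcam and Dpysl5. Over time 32 of 37 intervals lay within that bound, and those of Marcksl1, Basp1, Cntn2, Klf6 and Dbn1 reached past it. The standard errors ran from 0.05 to 0.22. In whole-cell RNA of a culture, a gene expressed in fewer cells and one expressed less per cell cannot be told apart.

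Between Hmgn5 siRNA at 24 h and control siRNA at 4 h, Klf6 (0.76) and Cntn2 (0.68, SE 0.11, adjusted p = 0.0133) rose, again 5.41% of the 37 against 2.57% of all genes. Above the dimmest 33% of genes the shares were 6.06% and 3.77%. With the 2 groups fitted alone, without the empirical Bayes step, or without Hmgn5 siRNA replicate 1 or 2, Klf6 was called and Cntn2 was not. The arrays did not overlap for 13 of the 37 (35.1%), 12 higher and 1 lower with Hmgn5 siRNA at 24 h. Of all genes 18.9% were apart (10.3% higher and 8.59% lower), and 24.7% of those above the dim line. Dpysl5 was the lower one (-0.32, adjusted p = 0.0974), and it was called with array weights, where 5.53% of all genes were. Gap43, Sox11 and Prph were higher by 0.18, 0.31 and 0.09 (adjusted p = 0.257, 0.258 and 0.55). These 4 were apart here and not over time in control cells. The difference between these comparisons is the knockdown difference itself, which did not pass for any of them.

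Differences over time depended on control 4 h replicate 2 for part of the set. Relative to the other 4 h arrays it was lower by over 0.3 for 10 of the 37 genes, down to -0.94 for Marcksl1, -0.92 for Dbn1, -0.88 for Basp1 and -0.63 for Nefh, and higher by over 0.3 for Sprr1a (0.43) and Nfasc (0.39). Without it 12 of the 37 differences over time moved by over 0.1 and 6 changed sign: those of Marcksl1, Nefh, Dpysl3, Cadm1, Sprr1a and Rufy3. Of all 22180 genes 4653 moved by over 0.1 and 3641 changed sign. The median went from 0.10 to 0.07, with 24 above 0 (64.9%). Over all genes it was then 0.02, with 55.9% above 0. Klf6 (0.37, adjusted p = 0.0223), Cntn2, Nrn1 and Ina then passed, 10.8% of the 37 where 5.58% of all genes did. The arrays were then apart for 20 of the 37 (54.1%), where the background, with 2 arrays at 4 h, was 33.9%. What set this array apart was not tested.

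**Figure D4:**
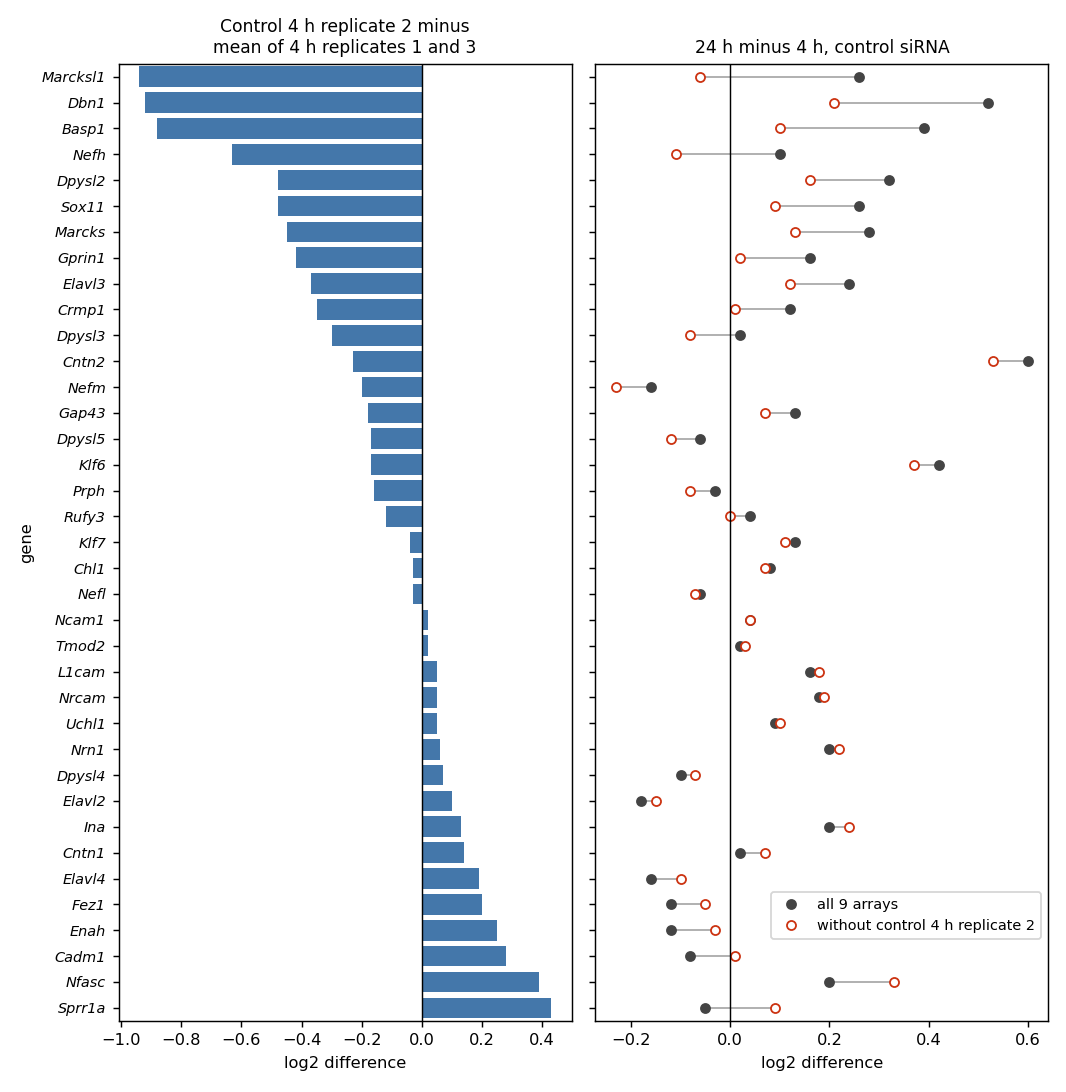
Left, bars give the log2 value of control 4 h replicate 2 minus the mean of 4 h replicates 1 and 3 for each of the 37 genes, sorted. Right, the difference between 24 h and 4 h in control siRNA with all 9 arrays (filled) and without that array (open). The genes at the top, such as Marcksl1, Dbn1 and Basp1, lose most of their difference, while Cntn2 (0.60 and 0.53) and Klf6 (0.42 and 0.37) keep theirs.

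Genes related to the set by role were on a fixed list of 93, also chosen with earlier results known, of which 85 were measured. They gave 2 rises and 2 falls over time, 4.71% of them, near the 4.34% of all genes. None was called at knockdown by limma, nor without the empirical Bayes step, and 4 of the 85 had an unadjusted p under 0.05 there, as did 5.25% of all genes. The rises were both of adhesion genes. Lsamp, a GPI-anchored molecule of limbic axons, read 7.99, 7.75 and 7.88 at 4 h and 8.87, 8.54 and 8.92 at 24 h (0.90, SE 0.10, adjusted p = 0.0025). Cntnap2, a neurexin-like protein that partners Cntn2 at the juxtaparanode of myelinated axons, rose from 5.21, 5.21 and 5.09 to 5.65, 5.61 and 5.94 (0.56, SE 0.10, adjusted p = 0.0177). This did not pass with control 24 h replicate 1 or 3 or control 4 h replicate 3 left out, nor with the 2 groups fitted alone or no empirical Bayes step. With Hmgn5 siRNA it read 5.69, 5.64 and 5.92, within the range of the 24 h controls.

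The falls were those of Klf5 and Zyx. Klf5, a Krueppel-like factor of proliferating cells, read 10.12, 10.37 and 10.12 at 4 h, 9.61, 9.49 and 9.56 at 24 h, and 9.84, 9.83 and 9.94 with Hmgn5 siRNA. It thus fell over time (-0.65, SE 0.08, adjusted p = 0.00377) while Klf6 rose, and at knockdown stood 0.32 above the 24 h controls (adjusted p = 0.595). Zyx, zyxin of focal adhesions, read 9.86, 9.72 and 9.77 at 4 h and 9.24, 9.21 and 9.43 at 24 h (-0.49, SE 0.07, adjusted p = 0.00814). Related genes of the membrane, collapsin, filament and RNA-binding roles had no call over time.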

How the data were processed

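Total RNA of 9 N1E-115 samples was measured on Affymetrix whole-transcript arrays. Per the labels' protocols it was amplified and converted to biotin-labelled sense-strand cDNA. The arrays were processed with oligo and RMA, per the submitters' processing notes (versions not given in the sources used here). The values the authors deposited are log2 expression per probe set. Quantile normalization, part of RMA, hides a change shared by most genes.

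The platform annotation gave 1 gene symbol to 23521 of 41345 probe sets, several to 1814 and none to 16010. The brightest probe set stood for each of 22180 genes, and 23328 probe sets matched the RefSeq table (GRCm38.p6, used for names and promoters). Groups came from the sample titles. limma 3.58.1 in R 4.3.3 (lmFit, eBayes) fitted all 9 arrays with group means, with 6 residual and 3.55 prior degrees of freedom. p-values were adjusted over all genes by Benjamini-Hochberg. Nothing in the labels says that samples were separate cultures. The p-values then reflect only sample-to-sample spread, which may be technical, and the number of arrays limits precision. No 2 arrays held the same values.

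The 37 genes, their 7 roles and the related and marker lists were chosen with earlier results of these data known. Every array's values are given for called genes, the 2 of each role with the smallest p over time and the 1 at knockdown; others were added for contrast after their values were seen. Of the related genes, called ones are named. The alternatives were a replicate block, other priors, weights, filters, normalizations and probe set rules, and leaving out each array. The fit was tested on simulated data.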

Additional observations from a re-analysis of the deposited data

How the results depend on the processing

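The 19 alternatives were tried on 21 differences of single genes, 14 over time and 7 at knockdown. Of their values 386 stayed on their side of the threshold, 6 lost and 6 gained a call, and none of these changed sign. For the other genes of the set sign was compared only without control 4 h replicate 2. There 6 of the 37 differences over time changed it, as did 3641 of all 22180. No alternative called any of the 37 or the 85 related genes at knockdown. Over time 4 of the 37 were called with array weights, where 7.6% of all genes were, and 0 to 4 with 1 array left out, where 1.4% to 5.58% of all genes were called. The lowest counts were 0 without control 24 h replicate 1 or 2 and 1 without replicate 3. Without the empirical Bayes step Klf6 and Nrn1 were the genes called. For Hmgn5 siRNA at 24 h minus control at 4 h, 1 of the 37 was called with the 2 groups fitted alone (0.509% of all genes). Without the empirical Bayes step 1 was called as well (1.15% of all genes). There were 3 with array weights (Dpysl5 the one gained), and 1 to 2 with 1 array left out, where 0.744% to 3.53% of all genes were called. Of the 85 related genes, 10 were called over time with array weights (7.6% of all genes) and 3 to 9 with 1 array left out (1.4% to 5.58% of all genes). The difference of Hmgn5 was -1.21 without the empirical Bayes step (adjusted p = 0.106) and -1.24 to -1.18 with 1 array left out (adjusted p 0.000209 to 0.0558). The filter on dim genes removes Hmgn5 and Nefm, so they gave no value there. With these exceptions, what caused a change was not tested.

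The replicate numbers were not taken as pairs. Deviations of same-numbered arrays correlated by 0.184, 0.089 and 0.285 between the 24 h groups and by 0.038, 0.045 and 0.062 between the control groups. In these comparisons every array correlated best with its own number, which is a hint from the data, not the design. With the replicate number as a block, 2 of the 37 and 6 related genes were called over time, where 4.03% of all genes were. At knockdown 0 of the 37 were called, where 0.00451% of all genes were, and Hmgn5 had a difference of -1.21 (adjusted p = 0.00722). Klf6 and Cntn2 were the 2 called.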
